A study of Mus musculus with 6 samples.

Results

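The 9 genes described here encode the granule proteins of eosinophils and the receptors that eosinophils use to grow and migrate: Epx, Prg2, Prg3, Ear1, Ear2, Ear6, Ear10, Il5ra and Ccr3. Members were all probes of the non-normalized bead array table to which the platform annotation gives 1 of these symbols. This found 7 probes for 7 of the 9 genes, 1 probe each, among 45281 probes for 19057 named genes. No probe carried the symbol Ear1 or Ear2 alone, and the expression of both genes is not analysed here. RNA came from lineage-negative, Kit-positive (LK) cells, the sorted marrow fraction that holds blood stem and progenitor cells, of mice aged 3 months. The NHD13 transgenic group and the wild type littermate group had 3 arrays each, and each array held the RNA of a pool of 3 mice. NHD13 stands for NUP98-HOXD13, a fusion gene found in human myeloid malignancy; the sources used here name neither the transgene's promoter nor the strain. The labels number the arrays 1 to 3 in each genotype without saying what a number stands for. The comparison asks how the transgene's carriers differ from wild type littermates in progenitor gene expression.

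Eosinophils arise in the marrow from myeloid progenitors under the cytokine interleukin 5 and pack their granules with basic proteins while still immature, so granule transcripts can be found in cells that precede the mature eosinophil. Major basic protein (Prg2) and its homolog (Prg3) damage membranes, eosinophil peroxidase (Epx) makes oxidants from halide ions, and the eosinophil-associated ribonucleases (Ear genes) form a rodent family of secreted RNases. Interleukin 5 binds the receptor chain encoded by Il5ra, which signals through the common beta chain Csf2rb, and Ccr3 is the receptor for eotaxins, the chemokines that draw eosinophils into tissue.

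The genes lie on 5 chromosomes of assembly GRCm38.p6 in the RefSeq gene table. Prg2 (chromosome 2, 84980461 to 84983632) and Prg3 (chromosome 2, 84988196 to 84996559) are neighbours, and Ear6 and Ear10 lie on chromosome 14. Epx is on chromosome 11, Il5ra on chromosome 6 and Ccr3 on chromosome 9. The RefSeq promoter table of the same build holds no entry for Prg2. For Prg3 and Epx, the 250 bases before the start site given by that table are shown. They are also shown for the ribonuclease genes Ear6 and Ear10, to show how alike the family is. That start site can lie inside the gene bounds: the Prg3 window ends at 84988214, past the gene start at 84988196. The Ccr3 window, counted below but not shown, ends at 124021970, whereas its gene starts at 124017825. Capitals mark 3 motifs searched on both strands: GATAA, bound by GATA factors, TTGCNNAA, bound by C/EBP factors, and TATAA, the TATA box. The regions are chr2:84987965-84988214, plus strand; chr11:87875537-87875786, minus strand; chr14:51853518-51853767, plus strand; and chr14:43923597-43923846, minus strand.
Prg3: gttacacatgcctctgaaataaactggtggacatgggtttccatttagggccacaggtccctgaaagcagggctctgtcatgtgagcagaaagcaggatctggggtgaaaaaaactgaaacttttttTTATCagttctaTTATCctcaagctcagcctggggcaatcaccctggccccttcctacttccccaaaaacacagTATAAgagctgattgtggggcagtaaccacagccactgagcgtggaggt
Epx: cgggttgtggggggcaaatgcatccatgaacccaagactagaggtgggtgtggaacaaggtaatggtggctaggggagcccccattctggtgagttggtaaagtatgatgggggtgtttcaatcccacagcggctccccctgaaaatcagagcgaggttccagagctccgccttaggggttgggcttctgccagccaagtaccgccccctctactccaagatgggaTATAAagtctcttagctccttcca
Ear6: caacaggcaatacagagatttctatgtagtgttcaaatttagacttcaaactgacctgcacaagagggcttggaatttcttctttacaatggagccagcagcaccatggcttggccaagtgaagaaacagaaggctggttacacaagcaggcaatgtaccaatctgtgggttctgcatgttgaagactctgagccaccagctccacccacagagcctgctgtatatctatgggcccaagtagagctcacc
Ear10: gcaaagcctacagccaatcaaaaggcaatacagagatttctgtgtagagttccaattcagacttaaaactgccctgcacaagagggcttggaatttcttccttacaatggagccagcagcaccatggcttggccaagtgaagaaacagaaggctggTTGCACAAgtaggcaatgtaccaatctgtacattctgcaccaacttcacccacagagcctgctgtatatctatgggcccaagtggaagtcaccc

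Prg3 held GATAA at 2 places, both on the reverse strand, at -123 to -119 and -111 to -107. TATAA lay at -49 to -45, with all positions counted from the promoter table's start site. Epx held TATAA at -24 to -20 and no match of the other motifs, while the window of Ear6 held no match of the 3 motifs. Ear10 held TTGCNNAA at -94 to -87, a match also found in Ear1 and Ear2. Over the 8 member genes in the table, GATAA was found in 3 (Prg3, Il5ra and Ccr3), against 22.6% of all 32851 promoters in the table. TTGCNNAA was found in 3, against 9.56%, and TATAA in 2, against 22.8%. The 3 with TTGCNNAA were Ear1, Ear2 and Ear10, whose windows were identical at 91% to 97.6% of aligned columns. They are therefore not independent cases. These matches describe letters in a window. The windows of the 4 Ear genes were identical at 77.7% to 97.6% of aligned columns over their 6 pairs, with Ear6 and Ear10 at 79.9%, whereas the other 22 pairs of member windows lay between 46.3% and 51.7%. Probe sequences were not used here. Which member of the Ear family an Ear probe reads was therefore not tested, and its values are uncertain in that respect.

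The arrays detected between 15983 and 16836 probes at a detection p-value under 0.05, the probe's rank among the negative controls of its array. A probe was tested if at least 3 arrays detected it, which left 16518 probes for 9000 named genes. Arrays of 1 genotype correlated across tested probes at 0.935 to 0.984. The sorting receptor Kit had a mean normalized log2 value of 12.60 ± 0.26 with the transgene and 12.82 ± 0.18 without it (SD, n = 3 pools each; limma adjusted p = 0.78). Over all tested genes, a median of 51.6% of the sum of squares lay between array numbers and 18.7% between genotypes. Number has 40% of the degrees of freedom and genotype 20%. The total includes the spread between numbers, so these shares do not tell whether genotype set the pools apart. The spread by number bears on every result below. Nothing in the labels says that the pools of a genotype came from separate sorts, so p-values measure only the spread between these arrays.

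Among the granule proteins, Prg2 varied more between arrays than any other tested gene. It was detected on all 6 arrays, with normalized log2 values of 12.85, 8.06 and 15.11 on wild type arrays 1, 2 and 3 and of 9.44, 6.87 and 13.82 on NHD13 arrays 1, 2 and 3. The arrays numbered 3 were highest in both genotypes and those numbered 2 lowest, so the genotypes overlapped widely. From the lowest to the highest array the signal ranged over 303-fold, and its SD over the 6 arrays, 3.36 in log2, ranked 1 among 9000 tested genes, whose median SD was 0.27. The error over beads within an array was small beside this: the unprocessed intensity was 31925 with a bead standard error of 1017 on wild type array 3 and 220 with a standard error of 9.25 on NHD13 array 2. Across the 7 member probes and 6 arrays, the bead standard error was 2.49% to 7.78% of the intensity, over 24 to 49 beads. In the authors' deposited table of processed values the same probe read 35427 on wild type array 3 and 101 on NHD13 array 2.

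Prg3, the neighbour and homolog of Prg2, was measured at a signal nearer to background. Its log2 values were 7.26, 4.69 and 9.53 on wild type arrays 1 to 3 and 4.90, 4.45 and 7.69 on NHD13 arrays 1 to 3. It was detected on wild type arrays 1 and 3 and on NHD13 array 3 only, and the genotypes overlapped. These 3 arrays were also the 3 highest for Prg2, in the same order: wild type 3, NHD13 3, wild type 1. The other 3 arrays have no order for Prg3.

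Epx gave 6.23, 5.32 and 9.53 on wild type arrays 1 to 3 and 5.31, 4.90 and 6.21 on NHD13 arrays 1 to 3. Wild type array 3 stood far above the rest, and only that array, wild type array 1 and NHD13 array 3 were detected. The SD over the 6 arrays was 1.69, rank 62 of 9000 genes. On the arrays numbered 2, Epx and Prg3 were both at background, so a difference between the genotypes there is not a measured one.

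**Figure D1:**
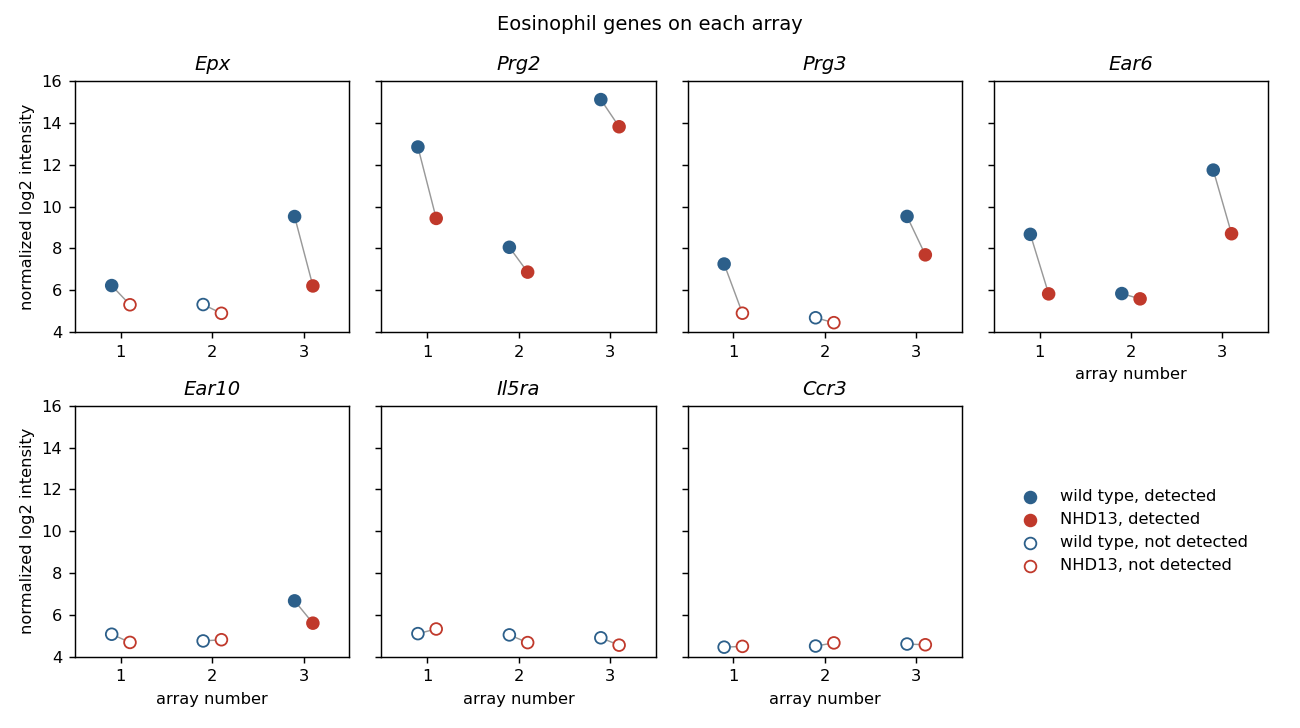
Normalized log2 intensity of the 7 member probes (y axis) on each array, by array number (x axis) and genotype; filled points were detected, open points were not, and grey lines join the arrays of 1 number. Prg2 spans 6.87 to 15.11, the arrays numbered 3 are highest for Epx, Prg2, Prg3, Ear6 and Ear10 within each genotype, and Il5ra and Ccr3 are open on all 6 arrays.

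Of the ribonucleases, Ear6 was detected on all 6 arrays and Ear10 on 2. Ear6 gave log2 values of 8.67, 5.84 and 11.74 on wild type arrays 1 to 3 and of 5.83, 5.59 and 8.70 on NHD13 arrays 1 to 3. Wild type array 3 was again highest, and the genotypes overlapped because NHD13 array 3 lay at the level of wild type array 1. Its range was 71.2-fold and its SD of 2.44 ranked 8 of 9000 genes. Ear10 was detected on the arrays numbered 3 alone, at 6.67 in wild type and 5.61 in NHD13, and the other 4 arrays lay between 4.69 and 5.08, all not above background. It was therefore not tested. The 3 probes annotated to Ear3, a further family member whose gene ID was not found in the RefSeq table, disagreed: 1 was detected on all 6 arrays, at 9.70, 6.73 and 12.45 on wild type arrays 1 to 3 and 5.72, 5.82 and 9.43 on NHD13 arrays 1 to 3, while the other two were below background on every array.

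The receptors gave no measurable signal. The Il5ra probe lay between 4.56 and 5.33 and the Ccr3 probe between 4.46 and 4.66 on the 6 arrays, none of them above background, with detection p-values of 0.082 at the lowest for Il5ra and 0.67 for Ccr3. No fold between the genotypes is given for them. Their SDs over the 6 arrays were 0.29 and 0.076 in log2. The surface lectin gene Siglecf and the integrin gene Itgam, both of mature eosinophils, and Il5 itself were likewise below background on all 6 arrays, so the genes of the label that were measured are the granule genes and not the receptor.

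Epx, Prg2, Prg3 and Ear6 were lower in NHD13 than in wild type on average, but in no case did the difference pass the test. For each of them it was smaller than the SD of the 3 wild type arrays, and for Epx and Ear6 it was larger than the SD of the 3 NHD13 arrays, which was 0.67 for Epx. Prg2 averaged 10.04 ± 3.51 on the NHD13 arrays against 12.01 ± 3.60 on the wild type arrays (log2; SD over n = 3 pools each), a difference of -1.97 ± 2.22 (SE; limma adjusted p = 0.82). Ear6 measured 6.71 ± 1.73 and 8.75 ± 2.95, a difference of -2.05 ± 1.51 (limma adjusted p = 0.75). The standard error of Prg2 exceeds its difference, and the median standard error over all tested genes was 0.21. Epx differed by -1.55 ± 1.03 (limma adjusted p = 0.73) and Prg3 by -1.47 ± 1.32 (limma adjusted p = 0.79). In limma 0 of the 4 tested members passed the adjusted threshold of 0.05, where 0.406% of all tested probes and 0.556% of all tested genes passed, 0.356% of genes on the lower side. At an unadjusted p under 0.05 the count was also 0 of 4, where 7.67% of all tested genes passed, so the members' counts do not exceed the background. The median difference of the 4 was -1.76, and that of all 9000 genes was 0.03. The 4 are the members bright enough to be tested, and Epx and Prg3 were detected on only 3 arrays each, so their differences rest partly on values at background. The 3 probes of Ear10, Il5ra and Ccr3 were not tested. In bulk RNA of this kind, fewer cells of a type and less RNA per cell cannot be told apart.

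Read by array number, the 4 tested genes give 12 pairs of an NHD13 and a wild type array, of which 8 had both arrays detected, and NHD13 lay below wild type in all 8. For Prg2 the differences were -3.41, -1.19 and -1.30 in log2 for numbers 1, 2 and 3, and for Ear6 they were -2.85, -0.25 and -3.04. For number 3, Prg3 differed by -1.84 and Epx by -3.32. The size of the difference thus varied between numbers. For number 1, Prg3 and Epx were detected in wild type and not in NHD13, and for number 2 both genes were undetected in both genotypes, so no size is given for these 4 pairs. NHD13 lay below wild type in all 3 pairs for 18.6% of all tested genes and above it in all 3 for 24.0%, whether or not the arrays were detected. These shares count genes over 3 pairs and not single detected pairs, so they are no like baseline for the 8. The 4 genes vary together, so they are not independent cases. With the array number as a block in limma, the standard errors fell to 0.47 for Prg2, 0.42 for Prg3, 0.58 for Ear6 and 0.57 for Epx. All 4 then had an unadjusted p under 0.05, with adjusted p of 0.19, 0.23, 0.23 and 0.29 in the same order, so 0 passed. Of all tested genes, 16.7% had an unadjusted p under 0.05 in that fit, 9.51% on the lower side, and 0.622% passed after adjustment.

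**Figure D2:**
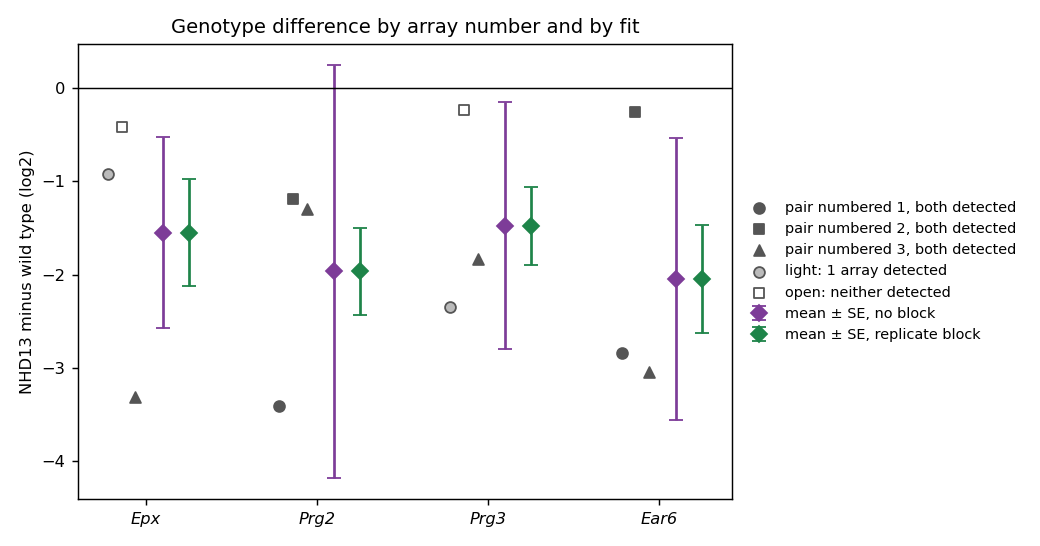
NHD13 minus wild type in normalized log2 (y axis) for the 4 tested members (x axis): marks are the differences between arrays of 1 number, dark where both arrays detected the gene, light where 1 did and open where neither did, and diamonds are the limma estimates with SE bars, without a block and with the array number as a block. The 8 dark marks lie below 0, and the bar of Prg2 shrinks from 2.22 to 0.47 with the block.

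Most of the members' spread lay between array numbers rather than between genotypes. For Prg2, 86.9% of the sum of squares over the 6 arrays lay between numbers and 10.3% between genotypes. The shares were 78.8% and 15.4% for Prg3, 70.7% and 21.2% for Ear6, and 58.0% and 25.2% for Epx. Over all tested genes the median shares were 51.6% between numbers and 18.7% between genotypes, where number has 2 of the 5 degrees of freedom (40%) and genotype 1 (20%). The shares of Epx and Prg3 include 3 arrays at background each. In Prg2 both arrays numbered 3 lay above both numbered 1, and these above both numbered 2, as in 304 of 9000 tested genes (3.38%). What the numbers share was not tested.

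**Figure D3:**
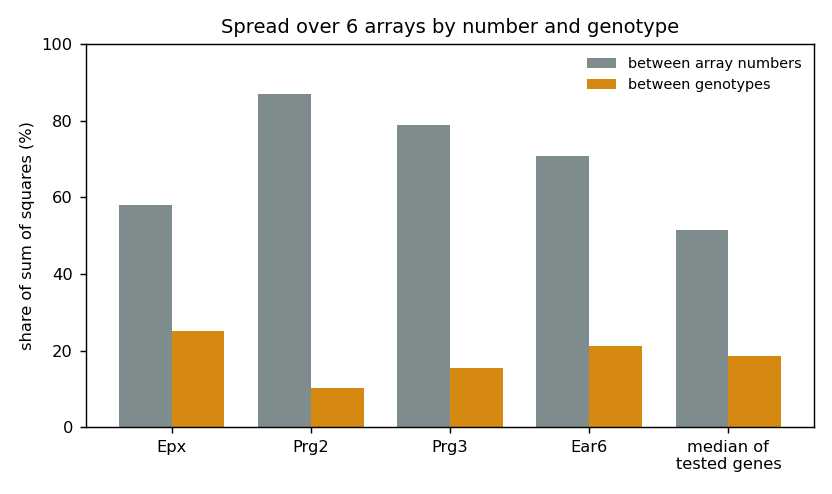
Share of the sum of squares over the 6 arrays, in percent (y axis), that lies between the 3 array numbers (grey) and between the genotypes (orange) for each tested member and as the median over 9000 tested genes (x axis). The grey bar is the taller for each member, from 58.0% for Epx to 86.9% for Prg2.

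The 4 tested members also varied alike across the 6 arrays. Pearson's r in log2 was 0.99 between Prg3 and Ear6, 0.97 between Prg2 and Prg3, and 0.81 between Prg2 and Epx, the lowest of the 6 pairs. These are descriptions over 6 arrays that share 2 genotypes and 3 numbers, and those with Prg3 or Epx include values at background. The genes most like Prg2 among 8756 compared were Nfkbiz (r = 0.9997), Fcgr4 (r = 0.998), Plpp5 (r = 0.995), Lgals3 (r = 0.994) and Tlr4 (r = 0.991). Nfkbiz encodes a nuclear member of the NF-kappaB inhibitor family and Fcgr4 an IgG receptor. Plpp5 encodes a lipid phosphatase, Lgals3 galectin-3 and Tlr4 the receptor for bacterial lipopolysaccharide. The range of these genes over the arrays was smaller than that of Prg2: 3.92-fold for Nfkbiz, 1.53-fold for Plpp5 and 33.6-fold for Lgals3. Tlr4 was detected on 3 of the 6 arrays and Fcgr4 and Lgals3 on 5, so the correlations of these genes also include values at background.

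In the pathway of the interleukin 5 receptor, 0 genes passed in either direction. Of 14 listed genes of interleukin 5 signalling and eosinophil receptors, 12 had a probe and 7 were tested, with 4 below 0, 3 above 0 and a median difference of -0.08. Il3ra, the interleukin 3 receptor chain, measured 8.38, 7.59 and 8.87 on wild type arrays 1 to 3 and 7.04, 6.47 and 8.62 on NHD13 arrays 1 to 3, a difference of -0.91 ± 0.58 (SE; limma adjusted p = 0.72). Csf2ra, the receptor chain for granulocyte-macrophage colony-stimulating factor, differed by -0.72 ± 0.56 (limma adjusted p = 0.76). Within each genotype, Il3ra was lowest on the array numbered 2, as Prg2 was. Csf2rb, the beta chain that Il5ra needs, was detected by 1 of its 3 probes, on 5 of 6 arrays, and differed by -0.08 (limma adjusted p = 0.97). Il5, Csf2rb2, Stat5b, Syk and Socs1 were below background on every array.

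Regulators of the eosinophil lineage lay on both sides of 0, and none of the 13 tested passed in limma in either direction. All 13 of 14 listed genes with a probe were tested, 10 below 0 and 3 above, with a median of -0.40. Gata1, the factor that directs eosinophil, erythroid and megakaryocyte fates, averaged 9.28 ± 0.46 on the NHD13 arrays against 8.46 ± 0.64 on the wild type arrays (log2; SD over n = 3 each), a difference of 0.82 ± 0.37 (SE; limma adjusted p = 0.66). All 6 tested erythroid markers also lay above 0, with a median difference of 0.33. Irf8, a factor of monocyte and dendritic cell fate, measured 7.55 ± 2.21 and 9.52 ± 0.77, a difference of -1.96 ± 1.04 (limma adjusted p = 0.70). Cebpe, a factor of granulocyte maturation named after its values were seen, had its highest values on the arrays numbered 3, 10.52 in wild type and 10.66 in NHD13, and its lowest on those numbered 2, 7.77 and 6.64. Of the 13 tested regulators 5 put both arrays numbered 3 above both numbered 1 and these above both numbered 2, and the other 8 did not.

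Other genes tied to eosinophils lay below 0 without passing. Of 20 listed symbols, which include older synonyms, 13 had a probe and 6 were tested, all 6 below 0, with a median of -0.87. The brightest Ear3 probe differed by -2.64 ± 1.57 (SE; limma adjusted p = 0.71). F13a1, the coagulation factor XIII chain that monocytes also express, differed by -2.32 ± 1.22 (limma adjusted p = 0.70). Of 8 other secreted RNases 4 were tested, with 0 passing and all 4 below 0. Rnase6 was the tightest of them: it measured 7.01, 6.77 and 6.77 on wild type arrays 1 to 3 and 6.12, 5.98 and 6.51 on NHD13 arrays 1 to 3. Its genotypes did not overlap, as in 12.5% of all tested genes, and the difference was -0.64 ± 0.19 (SE; limma adjusted p = 0.44). Only 9.22% of its sum of squares lay between numbers. Ang, the angiogenin gene, differed by -0.85 ± 0.43 (limma adjusted p = 0.69) by a probe detected on 1 NHD13 array and 3 wild type arrays. A second tested Ang probe differed by -0.12 ± 0.29 (limma adjusted p = 0.915).

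The markers of neutrophils, monocytes, mast cells and basophils lay mostly on the same side of 0 as the granule genes and the erythroid markers on the other, and their part in the members' values was not tested. Of 8 listed genes of maturing neutrophils 7 were tested, and all 7 placed both arrays numbered 3 above both numbered 1 and these above both numbered 2; the mean of the list ranged from 8.05 to 12.44 in NHD13 and from 7.91 to 12.85 in wild type (normalized log2), and Mmp8 was below background on every array. Their summed normalized intensity ranged from 3288 to 58447 in NHD13 and from 2755 to 73934 in wild type. All 7 lay below 0, with a median difference of -0.38. Between numbers lay a median of 96.9% of the neutrophil genes' sum of squares, and 0.972% between genotypes. Of 13 mast cell and basophil genes 8 were tested, and their mean ranged from 5.75 to 7.50 in NHD13 and from 6.91 to 8.91 in wild type; 7 of the 8 lay below 0, with a median of -1.43, and Tpsb2, Tpsab1, Mcpt4 and Gzmb were below background throughout. Primary granule genes of neutrophils, 5 tested of 6 listed, ranged in their mean from 11.03 to 14.69 in NHD13 and from 13.45 to 14.68 in wild type, with 5 of 5 below 0 and a median of -1.07. Monocyte and macrophage genes, 4 tested of 8, ranged from 5.51 to 7.77 and from 7.29 to 8.48, with 4 of 4 below 0, a median of -1.33, and C1qa and C1qb below background. Erythroid genes, 6 tested of 8, ranged from 12.16 to 12.84 in NHD13 and from 12.04 to 12.43 in wild type. Of 5 listed lymphoid genes of lineage-positive cells 2 were tested, Cd3e and Nkg7. Their mean ranged from 7.80 to 9.37 in NHD13 and from 8.71 to 9.52 in wild type, with both below 0. Cd3e was detected on 3 arrays and lay between 5.22 and 5.97, near background, so the mean mostly follows Nkg7, at 10.35 to 13.17. Nkg7 was lowest on NHD13 array 2, as the primary granule genes were, and whether it reads lymphoid cells here was not tested. The mean of the sorted cells' genes, 3 tested of 4, ranged from 8.81 to 9.62 in NHD13 and from 9.78 to 9.83 in wild type. All 3 lay below 0, and Flt3 was below background. Kit differed by -0.22 and Myb by -0.12, and a second tested probe of each lay just above 0, at 0.07 and 0.02. The gap between the ranges thus rests mostly on the third gene, Cd34. Cd34, a progenitor surface protein, was detected on 2 of 3 NHD13 arrays, with values from 5.05 to 7.30 over the 3, and on all 3 wild type arrays, from 7.63 to 7.87. The genotypes did not overlap, as in 12.5% of all tested genes, and the difference was -1.73 ± 0.52 (SE; limma adjusted p = 0.46). In each of these lists 0 genes passed in limma in either direction.

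**Figure D4:**
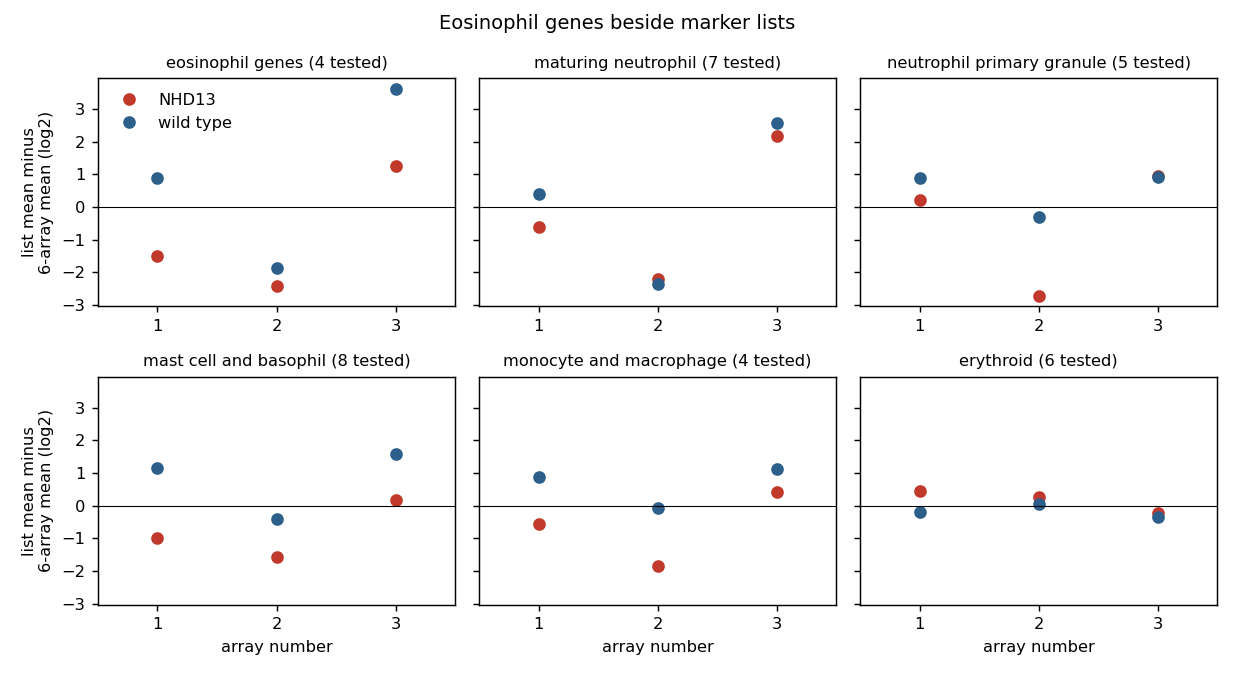
Mean normalized log2 value of each list's tested genes on each array, minus the mean over the 6 arrays (y axis), by array number (x axis) and genotype, for the 4 tested eosinophil genes and 5 marker lists. The eosinophil genes span -2.40 on NHD13 array 2 to 3.62 on wild type array 3, and the maturing neutrophil genes are lowest on the arrays numbered 2 and highest on those numbered 3 in both genotypes.

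Epx, Prg2, Prg3 and Ear6 lay below 0 in every alternative that tested them, but the size of the difference changed when single arrays were left out. These fits had no block, so leaving out 1 array kept its number in 1 genotype only. The spread between numbers then enters the difference, and its part in these changes was not tested. Without wild type array 3, Prg2 differed by -0.41, Epx by -0.30, Prg3 by -0.29 and Ear6 by -0.55. Without NHD13 array 2, Prg2 differed by -0.38. Without wild type array 2, the differences were -3.94 for Prg2, -2.40 for Epx, -2.71 for Prg3 and -3.50 for Ear6. Without both arrays numbered 2, which keeps the numbers balanced, Prg2 differed by -2.36, Epx by -2.12, Prg3 by -2.09 and Ear6 by -2.94. No member passed the adjusted threshold in any of the alternatives.

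**Figure D5:**
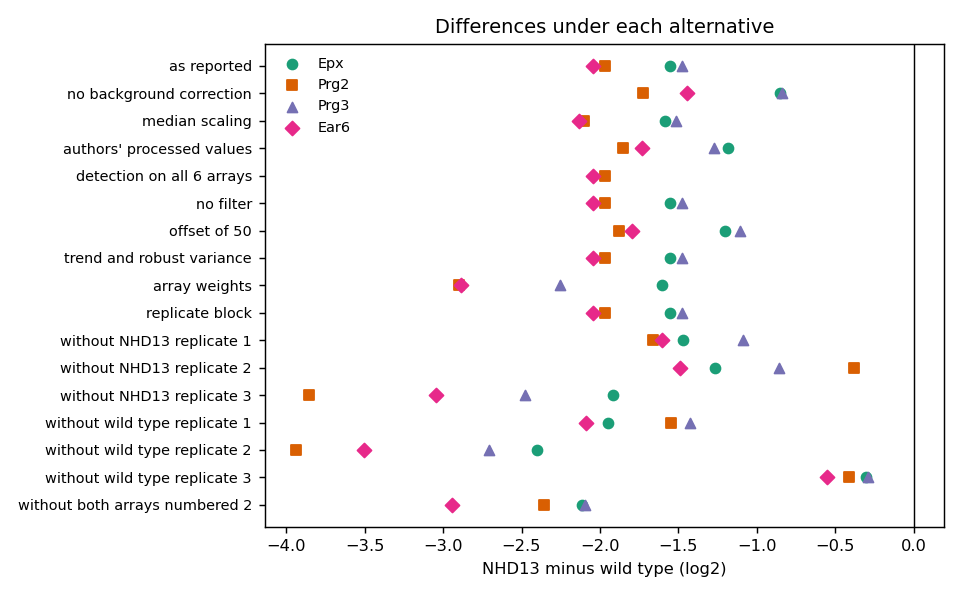
NHD13 minus wild type in log2 (x axis) for Epx, Prg2, Prg3 and Ear6 as reported and under 16 alternatives (y axis); Epx and Prg3 have no point where detection on all 6 arrays was required. Every point lies below 0; the nearest to it is the one without wild type replicate 3 for Epx, Prg3 and Ear6 and the one without NHD13 replicate 2 for Prg2.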

How the data were processed

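Per the file headers, the deposited bead array table gives each probe's average intensity, a count of its beads, the bead standard error and a detection p-value; no normalization or background step had been applied. The detection p-values fell in steps that give 936 negative controls. The authors' second deposited table holds intensity values that are background-subtracted and share a distribution on all arrays; the software is not given in the sources used here. Per the labels' protocols, Trizol RNA was reverse transcribed with oligo(dT) and labelled with biotin by in vitro transcription.

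Intensities were normalized with limma 3.58.1 in R 4.3.3 (neqc: normexp with inferred negative controls, offset 16, quantile, log2). Probes detected at p under 0.05 on at least 3 arrays were fitted with lmFit and eBayes, two-sided, with Benjamini-Hochberg adjustment over all 16518 at 0.05. A gene was read by its tested probe of highest mean. Array number limits precision. Symbols came from the platform annotation: 34885 probes had 1 symbol, 18 several and 10378 none, and 34807 probes had a gene ID in the RefSeq table. Promoter windows were aligned with Biopython 1.88.

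Members, lists and tests were chosen with earlier results of these data known. The text names every member, Kit, up to 2 tested genes of smallest p from each of 4 further lists, and the 5 genes most correlated with the brightest member; other names were chosen after their values were seen. Deviations from the genotype means correlated at 0.189, 0.671 and 0.539 between the arrays numbered 1, 2 and 3, each over the 0.1 taken as pairing, although arrays of other number and genotype reached 0.24. No label says what a number shares, so the block was kept as an alternative.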

Additional observations from a re-analysis of the deposited data

How the results depend on the processing

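With 3 arrays per genotype, the spread of the granule genes between arrays limits what can be told of the genotypes, and signal near background limits Epx, Prg3 and Ear10. The member genes called numbered 0 under all 16 alternatives. Epx and Prg3 were tested in 15 and Prg2 and Ear6 in 16 of them, always below 0, with adjusted p from 0.136 to 1. The median difference of the tested members, -1.76 as reported, was -1.15 without background correction, -2.57 with array weights, which rest on NHD13 replicate 1 (weight 5.02), and -1.47 over 7 members without a detection filter. Without 1 array at a time it ranged from -3.11 (without wild type replicate 2) to -0.36 (without wild type replicate 3). These fits had no block, so 1 array number was then in 1 genotype only. The replicate block left the estimates as they were and gave 79 called probes against 67; it changed no call among members or named genes. Probes called were 36 without background correction, 11 with detection on all 6 arrays, 579 with array weights, 21 without both arrays numbered 2 and from 1 (without wild type replicate 1) to 88 (without NHD13 replicate 3) without 1 array; the cause was not tested. Rnase6 passed with array weights alone (-0.76, adjusted p = 0.035). Each member had 1 probe, so reading another probe was not run.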
